A study of Mus musculus with 15 samples.

Results

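Grin2b, Snap25, Syt1, Rbfox3, Gria2, Grin1, Gad1, Slc17a7 and Map2 are 9 protein-coding genes of neurons and their synapses, and their open chromatin was followed in microglia sorted from mouse brain. They were selected on the ranks of peaks near them in microglia positive for the amyloid dye methoxy-X04, compared with X04 negative and WT microglia of the same age. The values of that contrast are therefore given below as a description, with no test. A peak belonged to a gene when that gene's body was the nearest protein-coding one within 100 kb of the peak's summit. The 9 genes are among 21631 protein-coding genes, and 51 of 68055 regions of strong peaks lay at them.

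The assay was ATAC-seq, which maps open chromatin by the cuts that a transposase makes in it. The 15 libraries came from FACS-sorted microglia of C57BL/6 mice and fell into 7 groups. At 10 months there were MetX04 positive microglia of 5xFAD mice, MetX04 negative microglia of 5xFAD mice, and microglia of WT mice, with 2 libraries each. All 3 of these groups are labelled with MetoxyX04 treatment, so the WT controls at 10 months carry it too. The younger mice were untreated: WT and IRF8KO at postnatal day 9 (P9), with 2 and 3 libraries, and WT and IRF8KO at postnatal day 14 (P14), with 2 each. The 5xFAD line carries human transgenes under the Thy1 promoter, which drives them in neurons, and forms amyloid plaques; IRF8 is a transcription factor of myeloid cells. Whether replicate libraries are from different mice is not stated in the labels, and p-values measure only the spread between libraries, which may be technical.

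At an excitatory synapse, glutamate is packed into vesicles by transporters such as the product of Slc17a7 and released when synaptotagmin 1 (Syt1) senses calcium and the SNARE protein SNAP-25 (Snap25) helps the vesicle fuse. The postsynaptic cell answers through AMPA receptors, of which Gria2 encodes a subunit, and NMDA receptors, of which Grin1 encodes the obligate and Grin2b a variable subunit. Gad1 makes the inhibitory transmitter GABA, Map2 stabilises microtubules of dendrites, and Rbfox3 encodes NeuN, a splicing factor used to mark neurons. All 9 are widely used as markers of neurons or of their transmitter systems, not of microglia.

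The RefSeq promoter table (GRCm38.p6, the assembly that mm10 names) held starts for 7 of the 9 genes, all but Snap25 and Grin2b. The sequences below are shown because the peaks at the starts of Map2 and Syt1 were the best ranked peaks of the 9 genes in X04 positive microglia, while Grin1 and Slc17a7 serve as comparison. Each is the stretch just before the gene body, read toward the gene. Capitals mark GGGCGG, the core of a GC box, and CCAAT, on either strand. Matches that overlap are capitalised as 1 run, as for Slc17a7.
Map2, chr1:66175079-66175201, plus strand: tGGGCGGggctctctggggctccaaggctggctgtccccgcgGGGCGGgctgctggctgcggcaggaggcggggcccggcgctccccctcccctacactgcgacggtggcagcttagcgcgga
Syt1, chr10:109010981-109011225, minus strand: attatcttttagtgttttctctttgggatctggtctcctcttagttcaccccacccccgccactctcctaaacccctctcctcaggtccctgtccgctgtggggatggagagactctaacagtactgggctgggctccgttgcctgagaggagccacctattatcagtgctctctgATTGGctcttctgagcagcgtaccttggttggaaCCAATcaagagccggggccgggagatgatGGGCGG
Grin1, chr2:25319188-25319437, minus strand: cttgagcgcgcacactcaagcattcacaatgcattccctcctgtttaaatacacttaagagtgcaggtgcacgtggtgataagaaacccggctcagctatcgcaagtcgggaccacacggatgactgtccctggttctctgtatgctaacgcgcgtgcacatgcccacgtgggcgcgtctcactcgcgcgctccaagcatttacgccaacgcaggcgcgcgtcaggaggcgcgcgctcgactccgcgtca
Slc17a7, chr7:45163671-45163920, plus strand: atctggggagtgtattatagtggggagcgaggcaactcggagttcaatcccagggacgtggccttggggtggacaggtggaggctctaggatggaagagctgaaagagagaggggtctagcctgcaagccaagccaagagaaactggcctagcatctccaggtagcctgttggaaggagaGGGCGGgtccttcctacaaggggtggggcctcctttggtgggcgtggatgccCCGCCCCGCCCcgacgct

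In the 250 bases before their starts, Map2 held 5 GC box cores and Slc17a7 held 3, while Grin1 and Gria2 held 0. The first start listed for Syt1 held 1 GC box core and 2 CCAAT matches. Of 32851 promoters in the table, 32.7% held a GC box core and 33.8% a CCAAT match in the same window. The Map2 window had 34 CpG dinucleotides, more than 96.5% of all promoters, and the Grin1 window had 27. Slc17a7 had 9 and Syt1 had 8, against a median of 6 over the table. A match describes these letters only.

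The X04 positive libraries stood apart in strength. A peak was called strong when it was among the 30000 best of its list by the −log10 p that the authors deposited, with peaks tied at that limit included. The −log10 p at that limit was 6.29 and 6.04 in X04 positive microglia, 24.3 and 19.9 in X04 negative, 18.6 and 23.1 in WT at 10 months, and between 22.8 and 80.6 in the 9 younger libraries. Peaks with −log10 p of at least 10 numbered 14780 and 12468 in X04 positive libraries and 46196 to 103477 in the others. Strong regions at 15 microglia markers, such as Cx3cr1 and P2ry12, numbered 40 and 26 in X04 positive libraries against 59 and 56 in X04 negative and 56 and 61 in WT at 10 months. These markers held strong regions in every library, fewest in X04 positive replicate 2.

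The neuronal genes held many more strong regions in X04 positive microglia than in any other library. They numbered 28 and 26 in X04 positive, 3 and 3 in X04 negative, and 5 and 3 in WT microglia at 10 months. In the younger WT mice they numbered 3 and 4 at P9 and 3 and 4 at P14. In IRF8KO mice they numbered 1, 1 and 3 at P9 and 1 and 1 at P14. The X04 positive values did not overlap those of any other group. Of the 51 regions, 43 were strong in X04 positive libraries only, and 37 of these 43 in 1 of the 2 replicates only. Over the genome, 31.2% of the 68055 regions were strong in X04 positive libraries only, 93.3% of them in 1 replicate only. A region entered the set by being strong in any library, so these regions entered it through the X04 positive pair.

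The strong peaks of the 9 genes in X04 positive microglia were of low significance on the authors' own scale. Their median −log10 p was 7.20 and 8.59, against 45.9 and 34.1 in X04 negative and 23.3 and 38.0 in WT at 10 months. The X04 negative and WT medians rest on 3 to 5 peaks per library. By the rule for strong peaks, none of these can lie under the limit of its list, which was 18.6 or more. In X04 positive, the weakest strong peaks of the 9 genes lay at the limit itself. There were 8 peaks at 6.29 in replicate 1 and 5 peaks at 6.04 in replicate 2. The best peaks just outside were at 6.26 and 5.91. With −log10 p of at least 10 asked of every list, the 9 genes had 4 and 8 peaks in X04 positive, 15 and 10 in X04 negative and 12 and 14 in WT microglia at 10 months. The X04 positive libraries, highest by rank, were then the lowest of the 6. All listed peaks, of any strength, numbered 274 and 270 in X04 positive, 164 and 204 in X04 negative, and 166 and 140 in WT at 10 months. The lists differ in length, so these totals do not show a change by themselves. Among the 126070 best peaks of each list, the length of the shortest, ties included, the counts were 160 and 187 in X04 positive. They were 114 and 131 in X04 negative and 143 and 140 in WT at 10 months. The part of library strength in the counts by rank was not tested beyond these values. In such bulk libraries, more cells with an open site and a more open site in each cell cannot be told apart.

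**Figure D1:**
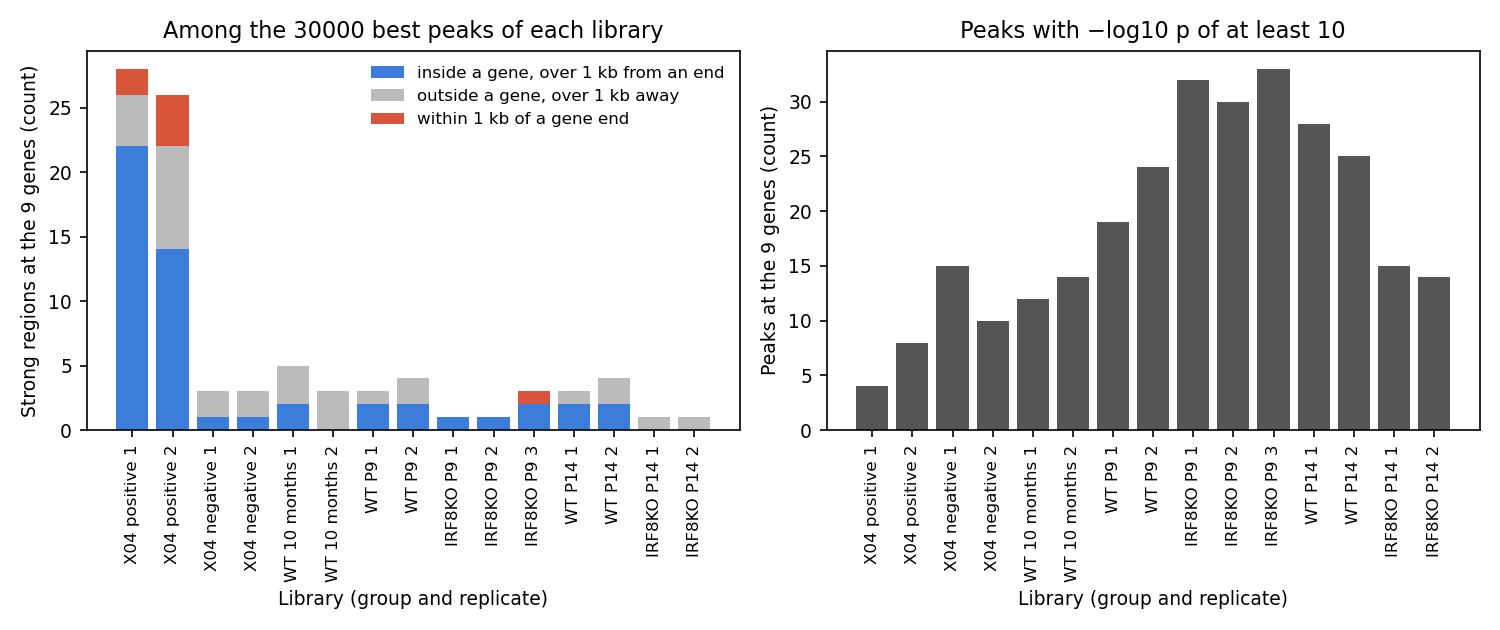
Left: strong regions at the 9 neuronal genes in each library (bars, stacked by place), among the 30000 best peaks. Right: peaks at the same genes with −log10 p of at least 10. X04 positive libraries have 28 and 26 strong regions on the left, and 4 and 8 peaks, the lowest bars, on the right.

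Gene ends held few but well ranked sites. An end site lay within 1 kb of either end of the gene body. Map2 and Syt1 had a strong end site in both X04 positive libraries and in neither X04 negative library, 2 of 9 genes. Over all genes this held for 2.29%, and the reverse, which no neuronal gene showed, for 1.67%. Gene length moved with the first share. Of genes of 250 kb or more, to which Map2 and Syt1 belong, 87 of 722 had such a site. Of shorter genes, 408 of 20909 did. The part of length in the result for Map2 and Syt1 was not tested. Grin1 had a strong end site in X04 positive replicate 2 only. Snap25 had 1 there too, and a different one, 0.9 kb from the same end (chr2:136714125-136714525), in IRF8KO P9 replicate 3, with −log10 p of 85.5.

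At the Map2 start (chr1:66175034-66175434), the summit lay 95 and 92 bp before the RefSeq start in X04 positive replicates 1 and 2. The gene body begins before that start, so both summits lay inside it and outside the Map2 bases printed above. The peak ranked 3559 and 3713 in the X04 positive lists, with −log10 p of 28.4 and 24.1 and fold enrichment of 10.6 and 9.92. In X04 negative libraries it ranked 50002 and 51213 (−log10 p 10.9 and 9.15), and in WT at 10 months 31370 and 61585 (−log10 p 17.4 and 7.32). The Map2 site was thus listed in all 15 libraries, but among the 30000 best in the X04 positive pair only. A rank places a peak within its own list and does not by itself show that the site was more open.

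The Syt1 start (chr10:109010844-109011244) behaved alike in rank. Its peak ranked 3640 and 3840 in X04 positive libraries, with −log10 p of 27.9 and 23.5 and fold enrichment of 10.7 and 10.2. It missed the limit narrowly in X04 negative libraries, at ranks 32980 and 33948 (−log10 p 21.3 and 16.8), and in WT at 10 months, at ranks 30554 and 37974 (−log10 p 18.0 and 16.2). The authors' −log10 p at Syt1 was higher still in WT P9 replicate 2, at 45.8 and rank 34341. IRF8KO at P14 listed it at ranks 36378 and 31231, whereas 3 of the 9 younger libraries listed no peak within 500 bp of the start. The Syt1 site was thus listed in all 6 libraries at 10 months, and its place in the list set the X04 positive pair apart.

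Gria2 has its RefSeq start 1.4 kb inside the outer end of the gene body, so its start site counts as interior by distance. The peak there (chr3:80802656-80803056) was strong in both X04 positive libraries, at ranks 22354 and 9561 with −log10 p of 7.35 and 12.1. X04 negative libraries gave −log10 p of 12.8 and 8.01 at ranks 46091 and 57839, and WT at 10 months 6.72 and 8.08 at ranks 60614 and 57703. The values of −log10 p overlapped between the groups at Gria2, while the ranks did not.

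Snap25 and Grin1 were split between the replicates. The site 2 bp from the Snap25 end had −log10 p of 2.63 and 10.7 in X04 positive libraries, 2.63 and 4.85 in X04 negative, and 7.35 in WT replicate 1 at 10 months, and it was not listed in WT replicate 2. Grin1 had a summit 108 bp before its start in X04 positive replicate 2, with −log10 p of 6.80 at rank 23202. In the 3 IRF8KO libraries at P9 the best peak within 500 bp of the Grin1 start had −log10 p of 21.9, 18.8 and 29.7, yet ranked 69543, 72841 and 61174. The start of Slc17a7 was listed in 11 libraries and that of Gad1 in 2, and neither was strong in any. No library listed a peak within 500 bp of the Rbfox3 start in the table.

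Counted by start in place of gene end, Map2, Syt1 and Gria2 had a strong summit within 500 bp of a start in both X04 positive libraries and in neither X04 negative one, 3 of the 7 genes with a start. Over all 17274 genes with a start, 2.33% did so and 1.49% did the reverse. These shares were not split by gene length. A strong summit at a start was found for 3 and 4 of the 7 genes in X04 positive libraries and for 0 of 7 in each of the other 13. Over all genes with a start the share was 44.9% and 44.7% in X04 positive libraries and 42.2% to 45.0% in the others. The X04 positive counts were thus near the genome share, and the counts of the other libraries lay under it.

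**Figure D2:**
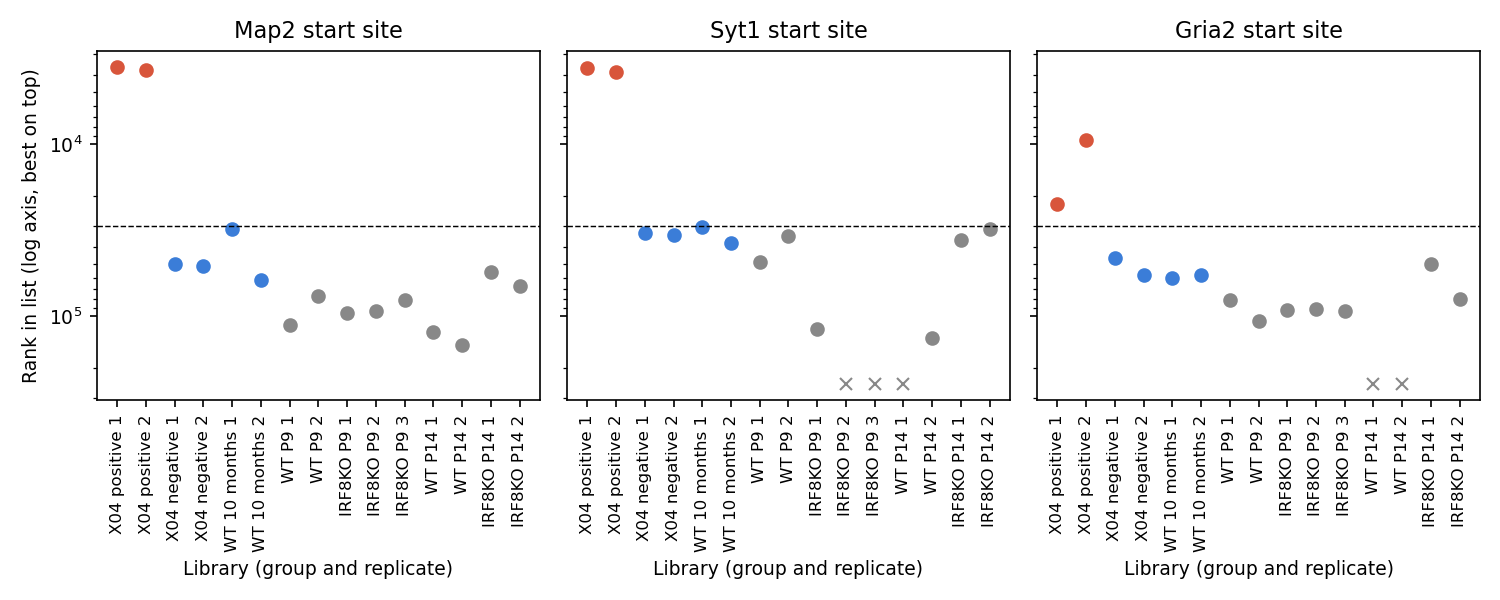
Rank of the peak at the starts of Map2, Syt1 and Gria2 in each library (log axis, best rank on top). Red points are X04 positive, blue points X04 negative and WT at 10 months, grey points the younger mice, crosses mark libraries with no peak there, and the dashed line is rank 30000. The 2 red points lie above the line in each panel and every other point lies below it.

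Most strong sites lay scattered inside the genes, over 1 kb from an end. Interior strong regions numbered 22 and 14 in X04 positive, 1 and 1 in X04 negative, and 2 and 0 in WT microglia at 10 months. With the −log10 p of at least 10, interior peaks numbered 2 and 3 in X04 positive, 7 and 4 in X04 negative, and 4 and 7 in WT microglia. Of the 35 interior regions, 32 were strong in X04 positive libraries only, 28 of them in 1 replicate only. Over all genes this held for 30.8% of interior regions, and in genes of 250 kb or more for 49.0%. Among those 32, 14 had no listed peak at all in the 13 other libraries, 12 were listed in 1 to 3 of them, and 4 in 8 or more.

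By gene, the NMDA receptor subunit gene Grin2b had 7 and 5 strong regions in X04 positive libraries, 0 and 0 in X04 negative, and 1 and 0 in WT at 10 months. Map2 had 4 and 5, Syt1 4 and 3, Gria2 5 and 2 and Grin1 2 and 2 in X04 positive libraries, and these 4 genes had 0 in X04 negative and WT libraries at 10 months. Snap25 had 4 and 6 in X04 positive, 1 and 2 in X04 negative, and 2 and 2 in WT libraries at 10 months. Rbfox3 had 1 and 2 against 1 and 1 in X04 negative. Gad1 had 1 and 0, and Slc17a7 had 0 and 1, so these 3 genes overlapped between the groups.

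In this way 6 of the 9 genes had more strong regions in each X04 positive library than in either X04 negative library, and none had fewer. Over 15912 genes with a region, 12.7% had more and 13.6% had fewer. Gene length moved with this share: of genes of 250 kb or more, 55.5% had more and 12.3% had fewer. Of the 4 neuronal genes of that length (Grin2b, Syt1, Rbfox3 and Map2), 3 had more, a share that such a small number cannot set apart from that of other long genes. Against WT at 10 months the same count was 6 of 9, beside 13% of all genes, with 0 of 9 in the reverse beside 13.9%. With −log10 p of at least 10 in every list, 0 of 9 genes had more peaks in each X04 positive library than in either X04 negative one, and 2 (Snap25 and Rbfox3) had fewer. Over all genes with such a peak, 0.414% had more and 53.8% had fewer.

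The density of strong interior peaks also followed length over the whole genome. In genes of 250 kb or more, it was 7.59 and 7.67 peaks per Mb of gene body in X04 positive, 5.37 and 5.49 in X04 negative, and 5.05 and 5.14 in WT libraries at 10 months. In genes under 20 kb the order was the opposite, with 13.2 and 12.2 in X04 positive against 14.7 and 15.1 in X04 negative. The 4 neuronal genes of 250 kb or more had 7.82 and 6.01 strong interior peaks per Mb in X04 positive, near the value of other long genes, but 0.601 and 0.601 in X04 negative and 1.20 and 0 in WT libraries, well under it. These low values rest on 0 to 2 peaks per library, in groups that the choice of the genes used. In the 9 younger libraries the 4 genes were low too, at 0 to 1.20 against 4.75 to 5.07 for all genes of that length. Among the 126070 best peaks of each list, ties included, the 4 genes had 58.9 and 75.8 interior peaks per Mb in X04 positive. They had 44.5 and 51.1 in X04 negative and 54.7 and 49.3 in WT libraries. All genes of that length had 46.5 and 53.0, 42.0 and 54.0, and 42.7 and 39.6, in the same order of groups.

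**Figure D3:**
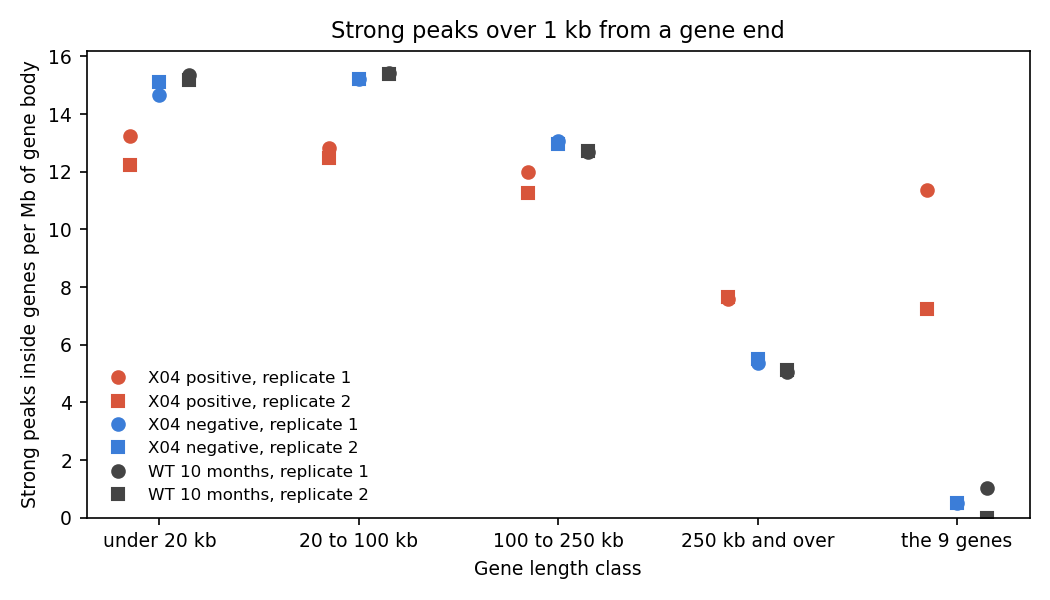
Strong interior peaks per Mb of gene body (vertical axis) by gene length class and for the 9 neuronal genes. Circles are replicate 1 and squares replicate 2. X04 positive (red) lies below the other groups in genes under 20 kb and above them in genes of 250 kb and over, and at the 9 genes reaches 11.4 and 7.23 per Mb against 0 to 1.03 in the other libraries at 10 months.

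Few of the interior sites recurred between the replicates. Of the strong interior peaks at the 9 genes, 4 of 22 (18.2%) in X04 positive replicate 1 and 4 of 14 (28.6%) in replicate 2 had a strong summit of the other replicate within 200 bp. Over genes of 250 kb or more, the share was 26.4% and 25.7% in X04 positive libraries and 83.1% to 85.4% in X04 negative and WT libraries at 10 months. At gene ends over all genes, it was 78.8% and 78.3% in X04 positive libraries. Inside all genes, it was 37.9% and 39.1% in X04 positive libraries. Only 4 of the 9 genes are of 250 kb or more, and their share was not split by length. On these few peaks, the interior sites of the 9 genes recurred about as seldom as those of long genes in the same libraries.

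**Figure D4:**
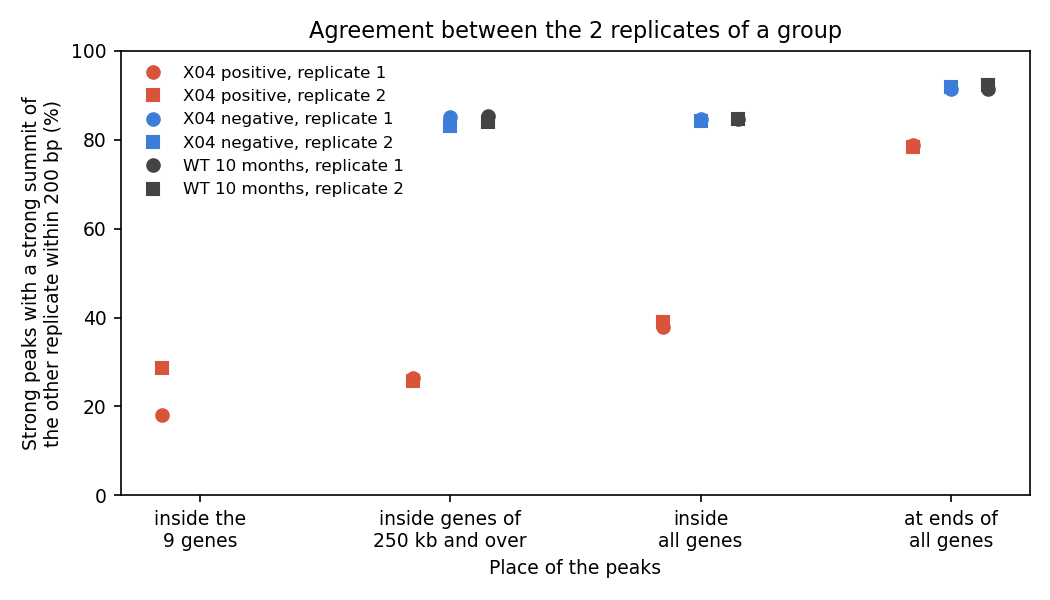
Share of strong peaks of 1 replicate that had a strong summit of the other replicate within 200 bp (vertical axis, percent), by place. X04 positive peaks (red) inside the 9 genes recurred at 18.2% and 28.6%, and X04 positive peaks at gene ends at 78.8% and 78.3%; the X04 negative and WT libraries are left out for the 9 genes, where they have 0 to 2 such peaks.

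The 4 interior regions that were strong in both X04 positive libraries and in no other were 2 of Grin2b, 1 of Snap25 and the start of Gria2. In Grin2b, the site at chr6:135907549-135907949, 194.5 kb from the nearer end, had −log10 p of 18.1 and 8.64 in X04 positive, 7.24 and 15.6 in X04 negative, and 16.7 and 9.95 in WT at 10 months. It was listed in all 15 libraries, and its values overlapped between the groups. The Snap25 site at chr2:136742282-136742682, 29.0 kb inside the gene, had −log10 p of 7.20 and 9.85 in X04 positive libraries. It was not listed in X04 negative replicate 1 and had 3.45 in replicate 2, and WT libraries at 10 months gave 4.47 and 16.3, so its values overlapped those of WT.

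The other Grin2b site, at chr6:135854281-135854681, was the only region of the 9 genes that was strong in both X04 positive libraries and absent from both X04 negative ones. Absent means no summit within 400 bp among the 126070 best peaks, the length of the shortest list. Its −log10 p was 8.15 and 11.5 in X04 positive libraries, it was not listed in X04 negative or WT libraries at 10 months, and IRF8KO P14 replicate 2 listed it at 6.13. This was 1 of the 8 regions strong in both X04 positive libraries, beside 1.67% of such regions over the genome. Against WT at 10 months the count was also 1 of 8, beside 1.47%, and 0 of 3 in the reverse, beside 9.08%. Without X04 positive replicate 1 the count against X04 negative would be 12, without replicate 2 it would be 19, and without X04 negative replicate 2 it would be 2.

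**Figure D5:**
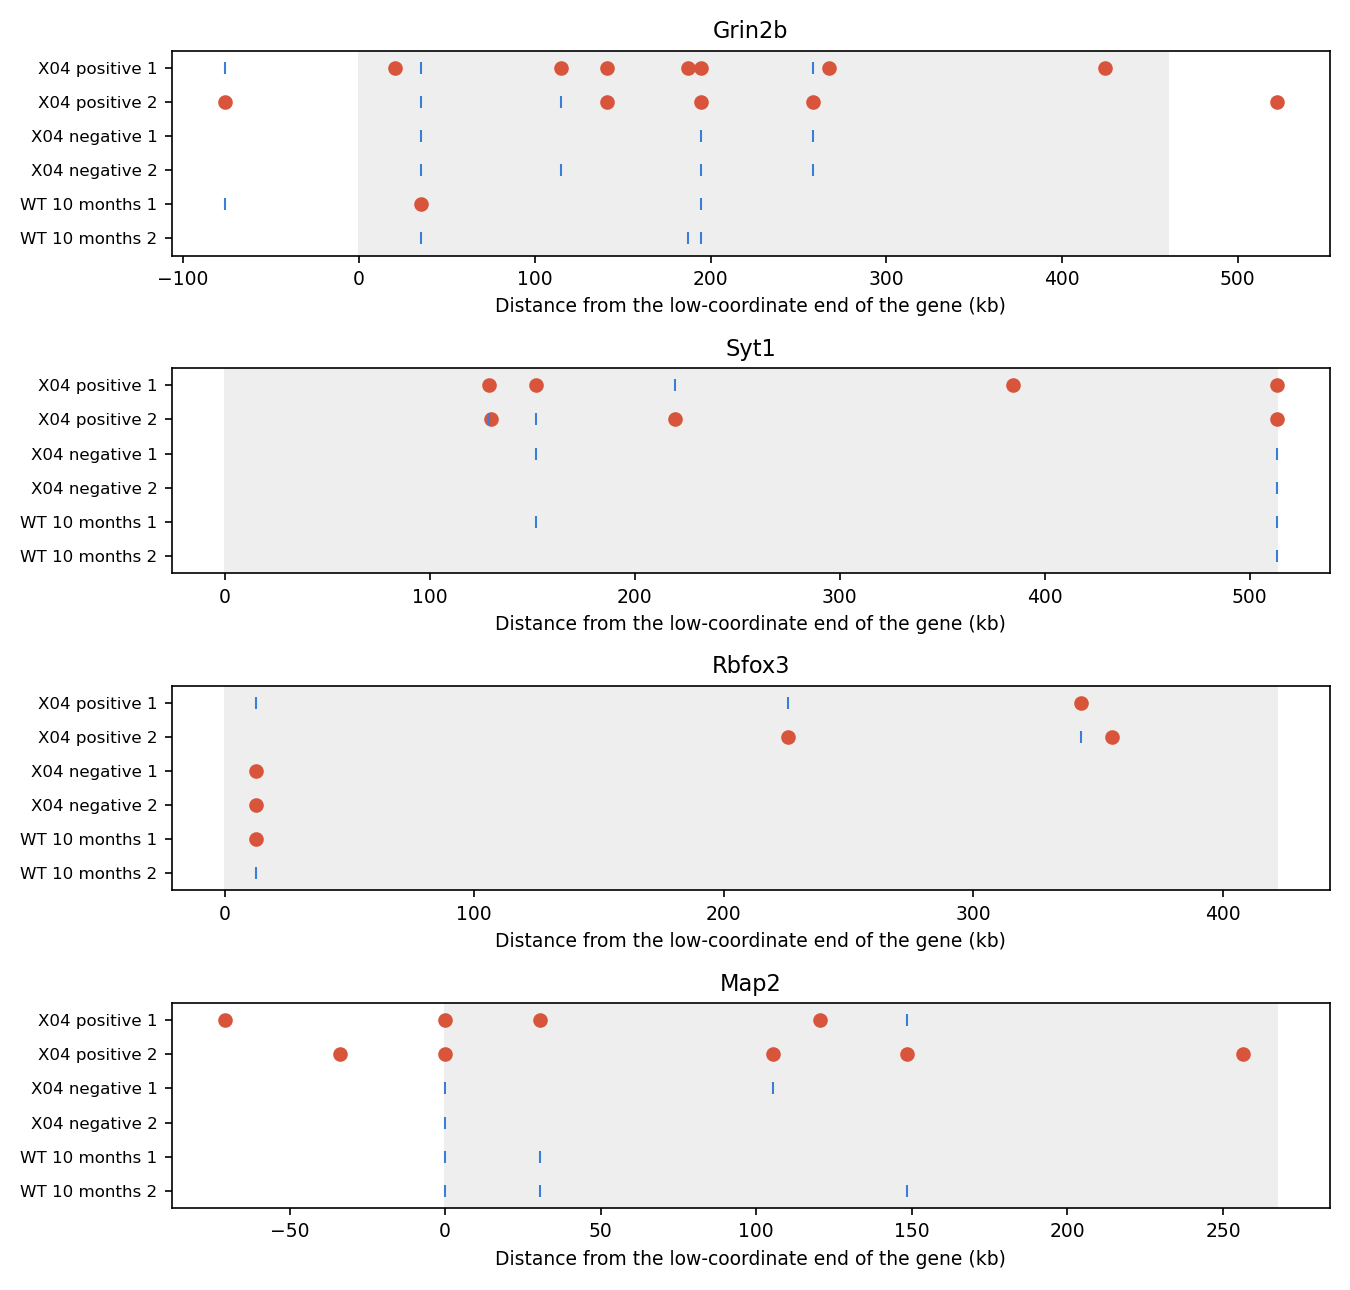
Places of the regions at Grin2b, Syt1, Rbfox3 and Map2 in the 6 libraries at 10 months, as distance in kb from the low-coordinate end of the gene (grey: gene body). Red dots are strong in that library and blue ticks are listed but not strong. X04 positive dots are scattered and mostly differ between the replicates, except at the Syt1 and Map2 ends and 2 places in Grin2b.

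Several sites at the same genes belonged to the other microglia libraries. In Rbfox3, the site at chr11:118502242-118502642, 12.7 kb from a gene end, had −log10 p of 45.9 and 34.1 in X04 negative and 19.8 and 21.7 in WT microglia at 10 months. It had 2.37 in X04 positive replicate 1 and was not listed in replicate 2. It was 1 of the 2 regions strong in both X04 negative libraries, and it was absent from both X04 positive ones, beside 9.22% of such regions over the genome. The site was strong in all 4 WT libraries of the younger mice, with −log10 p of 46.8 and 85.6 at P9 and 75.5 and 82.0 at P14, and in none of the 5 IRF8KO libraries, where it was not listed in 2 and reached at most 7.57.

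Grin2b held a site at chr6:135748413-135748813 that was strong in all 5 libraries at P9, in both WT libraries at P14 and in WT replicate 1 at 10 months. At P9 its −log10 p was 47.2 and 73.0 in WT and 87.8, 90.8 and 124 in IRF8KO, and it was 5.42 and 4.11 in X04 positive microglia. A site 33.4 kb outside Snap25 (chr2:136679845-136680245) was strong in all 6 libraries at 10 months and in none of the younger ones. Its −log10 p was 9.63 and 8.97 in X04 positive, 59.6 and 52.6 in X04 negative, and 44.1 and 74.0 in WT. The site 1.8 kb from Slc17a7 (chr7:45161920-45162320) was listed in all 15 libraries and strong in 9, X04 positive replicate 2 among them. Distance assigned these sites to the neuronal genes, and the data do not link them to the expression of those genes.

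X04 negative and WT microglia at 10 months were compared by the same rules. None of the 9 genes had more, and none had fewer, strong regions in both X04 negative than in both WT libraries at 10 months, beside 4.2% and 3.87% of all genes. No region was strong in one group and absent from the other, 0 of 2 and 0 of 3, beside 0.154% and 0.0668% over the genome. These shares are so low that counts of 0 say little about the 9 genes. Groups of 2 libraries allow no p under 0.333 in an exact two-sided test.

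Other neuronal genes were taken from 5 lists: vesicle and release genes, glutamate receptors, postsynaptic scaffold and signalling genes, GABA genes, and cytoskeleton and RNA-binding genes. The lists together held 84 genes besides the 9, of which 79 had a region. Of these 79, 33 had more strong regions in both X04 positive than in either X04 negative library and 2 had fewer. Among those of 250 kb or more, 19 of 25 had more, where all genes of that length gave 55.5%. Among those under 250 kb, 14 of 54 (25.9%) had more, where all genes of that length gave 10.7%. The median difference was 1 strong region for the 5 lists and 3.5 for the 9 genes, and 0 over all genes.

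By list, more strong regions were found for 10 of 23 vesicle and release genes, 12 of 19 glutamate receptor genes, 7 of 16 postsynaptic genes, 6 of 14 GABA genes and 4 of 16 cytoskeleton and RNA-binding genes, the 9 genes included. Of the markers of other brain cells, it held for 0 of 11 astrocyte, 3 of 9 oligodendrocyte, and 0 of 9 endothelial and mural genes. These lists are not matched for length. The longest of these markers, Flt1, spans 165 kb, and 10.7% of all genes under 250 kb had more, so counts of 0 in such short lists say little. Of the microglia markers 0 of 15 had more and 8 of 15 had fewer.

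Summed over the 84 other neuronal genes, strong regions numbered 190 and 216 in X04 positive, 94 and 93 in X04 negative, and 78 and 84 in WT libraries at 10 months. The sums for the other brain cells overlapped or lay close: astrocyte markers had 20 and 18, 23 and 22, and 18 and 18 in the same order of groups. Endothelial and mural markers had 14 and 14, 15 and 17, and 12 and 11. Oligodendrocyte markers had 8 and 11, 4 and 6, and 4 and 8, with the X04 positive pair at or above every other library. These sums are not matched for gene length. Over the 59 other neuronal genes under 250 kb they were 76 and 74, 41 and 41, and 41 and 41, in the same order of groups. The part of DNA from other cells in these sums was not tested.

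At gene ends, 11 of the 84 other neuronal genes had a strong site in both X04 positive libraries and in neither X04 negative one, and 0 the reverse, beside the 2.29% and 1.67% of all genes. Among them were Syn1, Syn2 and Rims1 of the vesicle list, the AMPA receptor gene Gria4, the postsynaptic genes Dlg3, Camk2a and Dlgap1, the GABA receptor gene Gabra4, and the cytoskeletal genes Tubb3 and Stmn2, named after their values were seen. Of the 84 genes, 4 of the 25 of 250 kb or more had such an end site. Over all genes of that length, 87 of 722 did. Of the 59 shorter ones, 7 had such a site, beside 408 of 20909 over all genes. By RefSeq start, 8 of 54 other neuronal genes had such a strong site, and 0 of 9 microglia markers. These counts by start were not split by length. Regions strong in both X04 positive and absent from both X04 negative libraries occurred at 4 of the other neuronal genes, among them the scaffold gene Dlg2, the synaptic adhesion gene Lrrtm1 (chr6:77257698-77258098) and the microtubule regulator gene Stmn2 (chr3:8549961-8550361). That is 4 of 84 genes, beside 0.92% of all genes. Of the genes of 250 kb or more it is 2 of 25, beside 47 of 722 of all genes of that length. Of the shorter ones it is 2 of 59, beside 152 of 20909. The reverse held for 9 regions at 7 of the 84 genes, beside 7.72% of all genes. A microglia marker, Olfml3, also had 1 region strong in both X04 positive and absent from both X04 negative libraries, and 3 regions of the microglia markers showed the reverse.

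IRF8KO and WT microglia of the younger mice gave a comparison that the choice of the genes did not use. The number of strong regions per gene was compared within P9 and P14 by an exact two-sided permutation test with 60 arrangements. The p-values were adjusted after Benjamini and Hochberg over the 2941 genes whose counts could reach the smallest p of 0.0167. Grin2b had 2 and 2 strong regions in WT against 1, 1 and 1 in IRF8KO at P9, and 1 and 2 in WT against 0 and 0 in IRF8KO at P14. The groups did not overlap at either age, and the mean difference was −1.25 regions (exact permutation p = 0.0167, adjusted p = 0.0271). Besides the site described above, the Grin2b count rests on a site 41.7 kb outside the gene (chr6:136215126-136215526), strong in both WT libraries at P9 and WT replicate 2 at P14.

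Rbfox3 had 1 and 1 strong regions in WT against 0, 0 and 1 in IRF8KO at P9, and 1 and 1 against 0 and 0 at P14. Its mean difference of −0.83 did not pass (exact permutation p = 0.0667, adjusted p = 0.0897). The other 7 genes had too few strong regions to reach the smallest p. So 1 of 2 testable neuronal genes was lower in IRF8KO and 0 were higher, beside 30.2% and 31.4% of all testable genes. Strength moved with genotype in opposite directions at the 2 ages: the −log10 p at rank 30000 was 39.1 and 54.3 in WT and 78.3, 73.4 and 80.6 in IRF8KO at P9, but 61.8 and 68.2 in WT and 26.6 and 22.8 in IRF8KO at P14. Its part in the Grin2b difference was not tested. Without any 1 WT library or any 1 IRF8KO library at P9, 0 genes passed, and without 1 IRF8KO library at P14 2215 and 2204 did. Leaving out any 1 library raises the smallest p of the exact permutation test above 0.0167. Without 1 IRF8KO library at P9 it is 0.0556, over the limit of 0.05, so 0 genes was fixed in advance there. The cause of the other counts was not tested.

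The genes whose strong regions per library correlated best with the sum over the 9 genes were Gpc5 (Pearson r = 0.95), Magi2 (0.87), Sfi1 (0.86), Macrod2 (0.82) and Ctnnd2 (0.82), among 926 genes with a mean of at least 5 strong regions. The correlation is over 15 libraries, each with its own strength that all genes share. The sum was 28 and 26 in X04 positive libraries and 1 to 5 in the others. The correlation thus rests largely on the X04 positive pair, which the choice of the 9 genes used. Gpc5, a glypican gene of 1433 kb, had 12 and 13 strong regions in X04 positive libraries and 3 to 5 in the others. Apart from Sfi1, at 71.5 kb, these genes span 857 kb or more.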

How the data were processed

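Per the labels' protocols, nuclei of sorted microglia were tagmented with a Nextera kit and the libraries amplified by PCR and size-selected. Bowtie2, MACS2 2.2.7.1, deepTools, bcl2fastq and the mm10 build stand in the submitters' processing notes, with no settings. The authors deposited 1 peak list per library, so peaks were called per sample and not on pooled samples. Each peak's fold enrichment is a ratio deposited by the authors, and its −log10 p and −log10 q were deposited as their peak caller gave them. These values describe a peak within its own list. Depth in reads is unknown from these lists, and counting intervals are left out. The lists held 126070 to 194399 peaks.

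Summits of strong peaks of all 15 lists were joined into regions, in order of rank, leaving out summits within 400 bp of an accepted one. A region was strong in a library with a strong summit within 200 bp. RefSeq gene bodies of GRCm38.p6 gave the genes. That gene table holds no exons or introns, so exons, introns and UTRs were not told apart. The 9 genes, the gene lists and the rules were chosen with earlier results of these data known. Named genes were all 9, up to 4 genes of each other list with a region higher in X04 positive than in X04 negative microglia, and the 5 genes most alike over libraries. Other neuronal genes with a site at an end were named after their values were seen. Some items of the lists are not reported here. Replicate numbers are not stated to pair the samples. The rules were tested on simulated data. With few changed genes the exact test cannot pass after adjustment, since its smallest p is 0.0167. No 2 lists were identical. Alternatives were the number of best peaks, the assignment distance, the end distance, a −log10 p of at least 10, ties left out (chosen after seeing the data) and each replicate left out. The software was scipy 1.17.1, pandas 2.3.3 and numpy 2.4.6 under Python 3.11.15, with matplotlib 3.10.9 for plots.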

Additional observations from a re-analysis of the deposited data

How the results depend on the processing

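The difference in strong interior regions of the 9 genes between X04 positive and X04 negative microglia, 17 per library, was 6.5 with the 20000 best peaks, 31.5 with the 50000 best and 12.5 with tied peaks left out. It was −3 with −log10 p of at least 10 in every list, the opposite direction, and 13 to 21 without 1 replicate. The difference in strong end regions, 3, was 1 with 50000 peaks, 5.5 with ends of 5 kb, 0 with −log10 p of at least 10, and 2 to 4 without 1 replicate. Genes with a strong end in both X04 positive and no X04 negative library numbered 2, then 1 with 50000 peaks, 5 with ends of 5 kb, 0 with −log10 p of at least 10 and 2 to 4 without 1 replicate. Genes with more strong regions numbered 6, 0 with −log10 p of at least 10, and 6 to 7 without 1 replicate. Regions strong in X04 positive and absent from X04 negative libraries numbered 1, then 3 with 50000 peaks and 1 to 19 without 1 replicate; against WT they numbered 1, then 3 and 1 to 18. These counts by gene and their alternatives, and ties left out, were chosen after seeing the data. For each of these the cause was not tested.

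The replicate numbers are not stated to pair the samples. Same-numbered libraries had correlations of their deviations of −0.019 to 0.0012, which show no pairing but cannot exclude it. With a replicate block, 0 genes passed the exact test of IRF8KO against WT, where the smallest p is 0.125, against 1811 without it. Without 1 replicate the count was 0 to 2215. Among these counts, the 0 was also fixed in advance where an IRF8KO library at P9 was left out. The cause of the other counts without 1 replicate was not tested. Of 85 alternatives, 54 stayed within their limits. Weak X04 positive lists limit what ranks show at these genes.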
